A study of Mus musculus with 40 samples.

Results

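The comparison sets 3 quadriceps libraries of mice that had just run to exhaustion on a treadmill at dark onset (Ex +0h ZT12) against 3 libraries of mice that had just done so at light onset (Ex +0h ZT0). The libraries were chosen by these titles and are 6 of the 40 in the series. ZT, Zeitgeber time, counts hours from lights on, so that for a nocturnal mouse ZT12 opens the active phase and ZT0 the rest phase. The question was which time-of-day differences in muscle RNA are present in muscle that has just been exercised. The exercised muscle was labelled as sampled at ZT12.5 and at ZT0.5, directly after the run. The same time difference in mice that did not run came from 3 libraries labelled Sed ZT12 and 3 labelled Sed ZT0. All of these mice were C57BL/6, and no allele or drug is named for any of them. The 2 sessions were held at 2 times of day, so an effect of the clock time and an effect of how each session was run cannot be told apart. The labels give each library its own tag but do not say that each came from a separate mouse. The p-values therefore measure the spread between libraries, estimated over all 24 quadriceps libraries.

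The libraries held 51772686 to 56890749 estimated counts in Ex +0h ZT12, 27353187 to 65687474 in Ex +0h ZT0, 45630996 to 53679385 in Sed ZT12 and 48234193 to 73594347 in Sed ZT0. The lowest total of the 24 quadriceps libraries was that of Ex +0h ZT0 replicate 3. Levels below are CPM, estimated counts scaled to a common library size, and are not divided by transcript length, so they compare libraries and not genes. The label of skeletal muscle held: the 8 muscle markers, such as Ckm and Acta1, summed to 187318 to 195093 CPM in Ex +0h ZT12 and 147268 to 182007 CPM in Ex +0h ZT0. Every Ex +0h ZT12 sum thus lay above every Ex +0h ZT0 sum, and 7 of the 8 markers had a positive change. The part of this difference in the changes below was not tested. Adipocyte RNA varied between libraries: 10 markers summed to 2853, 1285 and 2129 CPM in Ex +0h ZT12 and to 3339, 1356 and 3974 CPM in Ex +0h ZT0. These sums overlap between the 2 exercised groups. In sedentary muscle they were 4945, 3057 and 2032 CPM in Sed ZT12 and 1407, 2024 and 1333 CPM in Sed ZT0, where every ZT12 library lay above every ZT0 library. In bulk tissue, fewer cells of a type and less RNA per cell cannot be told apart.

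The circadian clock of muscle is a transcriptional loop. CLOCK or NPAS2 pairs with BMAL1, the product of Arntl, binds E-boxes and drives the Per and Cry genes, the REV-ERB genes Nr1d1 and Nr1d2, and outputs such as Dbp; PER and CRY proteins then repress the activators. REV-ERB and ROR receptors compete on a short element to repress or activate Arntl, and the PAR bZIP factors DBP, TEF and HLF act through D-boxes, where NFIL3 competes with them.

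The following stretches of RefSeq promoters (GRCm38.p6) show matches to short forms of these elements in clock genes whose levels are described below. Each is written 5′ to 3′ on the gene's strand, and capitals mark the motif. The letters TNGGTCA, where N is any base, were searched as a loose form of the core shared by REV-ERB and ROR receptors. They were found in Arntl (chr7:113207235-113207320, plus strand, motifs starting at -200 and -181 from the first listed start), Leo1 (chr9:75441431-75441497, plus strand, at -63) and Nfil3 (chr13:52981040-52981081, minus strand, at -12, where the motif lies on the opposite strand). At N the Arntl matches hold T and C, and those of Leo1 and Nfil3 hold A. The Arntl matches are thus not shown to be the element on which these receptors act. Arntl, Leo1 and Nfil3 had lower RNA at dark onset. The other 3 clock genes with these letters, Cry2, Per3 and Tef, had higher RNA, so the matches went with both directions. The E-box CACGTG was found in Ciart (chr3:95882237-95882374, minus strand, at -116, -58 and -44), Tef (chr15:81802516-81802581, plus strand, at -127) and Per1 (chr11:69098753-69098818, plus strand, at -166). The D-box TTATGNAA was found in Per3 (chr4:151044786-151044900, minus strand, at -205 and -158) and in a second window of Per1 (chr11:69098895-69098948, plus strand, at -24).
Arntl: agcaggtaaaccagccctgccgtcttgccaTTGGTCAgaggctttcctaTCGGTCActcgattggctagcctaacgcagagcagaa
Leo1: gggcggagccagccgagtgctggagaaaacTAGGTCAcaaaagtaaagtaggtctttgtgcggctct
Nfil3: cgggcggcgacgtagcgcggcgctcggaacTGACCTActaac
Ciart: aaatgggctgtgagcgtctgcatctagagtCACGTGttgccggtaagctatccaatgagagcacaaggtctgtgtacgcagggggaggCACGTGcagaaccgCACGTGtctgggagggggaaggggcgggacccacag
Tef: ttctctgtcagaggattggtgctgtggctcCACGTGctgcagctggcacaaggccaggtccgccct
Per1, E-box: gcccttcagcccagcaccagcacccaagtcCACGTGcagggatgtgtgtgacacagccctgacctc
Per1, D-box: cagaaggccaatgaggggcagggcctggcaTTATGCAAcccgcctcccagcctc
Per3: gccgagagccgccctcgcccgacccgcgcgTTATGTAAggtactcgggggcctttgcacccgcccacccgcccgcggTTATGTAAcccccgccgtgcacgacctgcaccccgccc

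Both strands of the 250 bases before a start were searched, and no 2 marked motifs overlap in the windows printed. Of the 30 clock genes listed, 26 had an entry in the promoter table. Among them 8 held CACGTG (Bhlhe41, Ciart, Coq10b, Cry1, Lonrf3, Per1, Tef and Tspan4), against 6.86% of 27025 genes. The D-box TTATGNAA was in 3 (Coq10b, Per1 and Per3), against 3.63%, and TNGGTCA in 6, against 10.5%. A match describes the letters and not a bound site.

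The just-exercised muscles of the dark-onset and light-onset sessions differed at many genes. Of 15097 genes tested, 1740 (11.5%) passed an adjusted p of 0.05 (edgeR's quasi-likelihood test with Benjamini-Hochberg adjustment over all of them). At dark onset 843 genes (5.58%) were higher and 897 (5.94%) were lower than at light onset. The 3 libraries of each group did not overlap at 4108 genes (27.2%), and 1652 of the 1740 called genes were among them. Most of the differences were modest, with 85 called genes at least 2-fold higher and 190 at least 2-fold lower. The count rests on how the spread is estimated: with the 6 libraries fitted alone, 758 genes passed. It was 994 without Ex +0h ZT12 replicate 1, 1118 without Ex +0h ZT0 replicate 1 and 1090 without Ex +0h ZT0 replicate 3.

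Many of these differences were also present in muscle that had not run. In sedentary muscle 2436 genes (16.1%) differed between ZT12 and ZT0, 1144 higher (7.58%) and 1292 lower (8.56%). The 2 comparisons share no library. Both tests called 951 genes (6.3%) in the same direction, 464 higher and 487 lower at ZT12, and 1 gene, Adap1, in opposite directions. Those 951 are 54.7% of the genes called in exercised muscle and 39.0% of those called in sedentary muscle. Of the 2436 sedentary calls, 2153 (88.4%) had the same direction of change in exercised muscle, against 65.9% of all tested genes. For 1388 of them (56.98%) the exercised libraries did not overlap in that direction, against 23.2% of all tested genes. The median size of the change in the 951 genes was 0.47 log2 units in exercised and 0.48 log2 units in sedentary muscle. These genes were chosen by passing both tests in the same direction, so their sizes do not test whether the effects were equal. With the adipocyte marker score as a covariate, 1077 genes were called in sedentary and 1656 in exercised muscle. The sedentary count was 1287 without Sed ZT12 replicate 2, 1534 without Sed ZT0 replicate 1 and 1283 without Sed ZT0 replicate 3, and the shared count was 623 without Ex +0h ZT12 replicate 1.

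**Figure D1:**
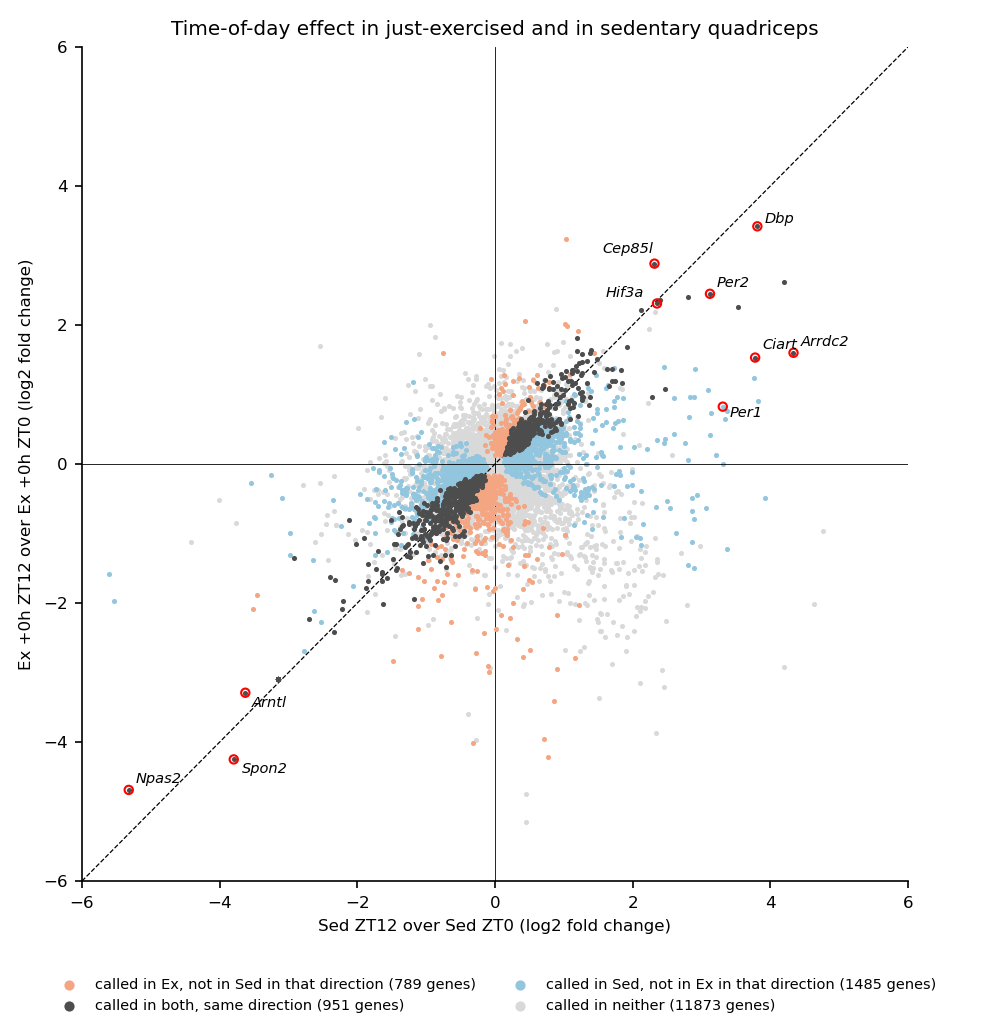
Log2 fold change of ZT12 over ZT0 for each of 15097 genes, in exercised muscle on the vertical axis and in sedentary muscle on the horizontal axis, with 3 genes outside the axes. The 951 genes called in both in the same direction (dark grey) spread along the dashed line of equal effects, which follows in part from that choice. Per1, Ciart and Arrdc2 lie on the side of a smaller effect in exercised muscle.

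The test of the difference between these 2 time effects called no gene: 0 of 15097 (0%) passed in edgeR, with a smallest adjusted p of 0.258, while DESeq2 called 18 and 1912 (12.7%) were under an unadjusted p of 0.05. Without Ex +0h ZT0 replicate 2, 322 genes passed. The 788 genes called in exercised and not in sedentary muscle are therefore not shown to respond to time differently after the run. The median standard error of the difference was 0.182 log2 units.

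The activators of the clock differed between the sessions in the directions seen in sedentary muscle. Of 7 activators, Rora was higher and Arntl, Clock and Npas2 were lower at dark onset. Arntl had 4.87, 5.91 and 4.40 CPM in Ex +0h ZT12, against 49.1, 49.8 and 49.8 CPM in Ex +0h ZT0. Every dark-onset library lay far below every light-onset library. The log2 fold change was -3.29 ± 0.18 (SE, adjusted p = 1.89e-09), beside -3.63 in sedentary muscle, and the difference of the 2 effects was 0.34 (95% interval -0.18 to 0.85).

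Npas2, which can replace CLOCK beside BMAL1, was the gene with the widest gap among the activators. It had 0.203, 0.148 and 0.181 CPM in Ex +0h ZT12 and 5.18, 4.41 and 4.25 CPM in Ex +0h ZT0, a log2 fold change of -4.69 ± 0.33 (adjusted p = 2.08e-08). Clock had 14.0, 16 and 11.7 CPM in Ex +0h ZT12 and 28.8, 29.3 and 29.4 CPM in Ex +0h ZT0 (-1.07 ± 0.10, adjusted p = 4.3e-07). Neither pair of groups overlapped. Rora, which encodes a receptor that activates Arntl, had 88.2, 84.3 and 80.1 CPM in Ex +0h ZT12 and 57, 57.9 and 56.4 CPM in Ex +0h ZT0, and was higher by 0.56 log2 units (adjusted p = 0.00509). Rorb (0.36, 95% interval -0.22 to 0.95) and Arntl2 (0.16, -0.10 to 0.43) did not pass.

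Among the 10 repressors, 5 were higher and 2 lower at dark onset. Per3 had 54.4, 44.3 and 52.1 CPM in Ex +0h ZT12 and 7.59, 12.48 and 9.4 CPM in Ex +0h ZT0 (2.36 ± 0.18, adjusted p = 1.44e-07), with a sedentary fold change of 2.39. Per2 had 61.8, 53.8 and 56.5 CPM in Ex +0h ZT12 and 12.7, 12.2 and 6.23 CPM in Ex +0h ZT0 (2.45 ± 0.44, adjusted p = 0.00186). In both Per genes every dark-onset library lay above every light-onset library.

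Cry2 and Cry1, the cryptochromes, went opposite ways. Cry2 had 89.6, 72 and 71.1 CPM in Ex +0h ZT12 and 46.4, 36.7 and 39.5 CPM in Ex +0h ZT0 (0.92, adjusted p = 1.64e-05). Cry1 had 15.54, 15.6 and 15.7 CPM in Ex +0h ZT12 and 21.5, 22.2 and 21.3 CPM in Ex +0h ZT0 (-0.47, adjusted p = 0.000917). Neither overlapped between the groups. The 2 REV-ERB genes also went opposite ways. Nr1d1 had 21.5, 40.4 and 29.8 CPM in Ex +0h ZT12 and 73.9, 70.5 and 97.3 CPM in Ex +0h ZT0 (-1.40, adjusted p = 0.000248). Nr1d2 had 106, 117 and 110 CPM in Ex +0h ZT12 and 44.3, 57.4 and 39.0 CPM in Ex +0h ZT0 (1.24, adjusted p = 4.3e-07). Bhlhe40 (0.12, 95% interval -0.26 to 0.50) and Bhlhe41 (0.46, 0.05 to 0.87), which encode the DEC repressors, did not pass.

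**Figure D2:**
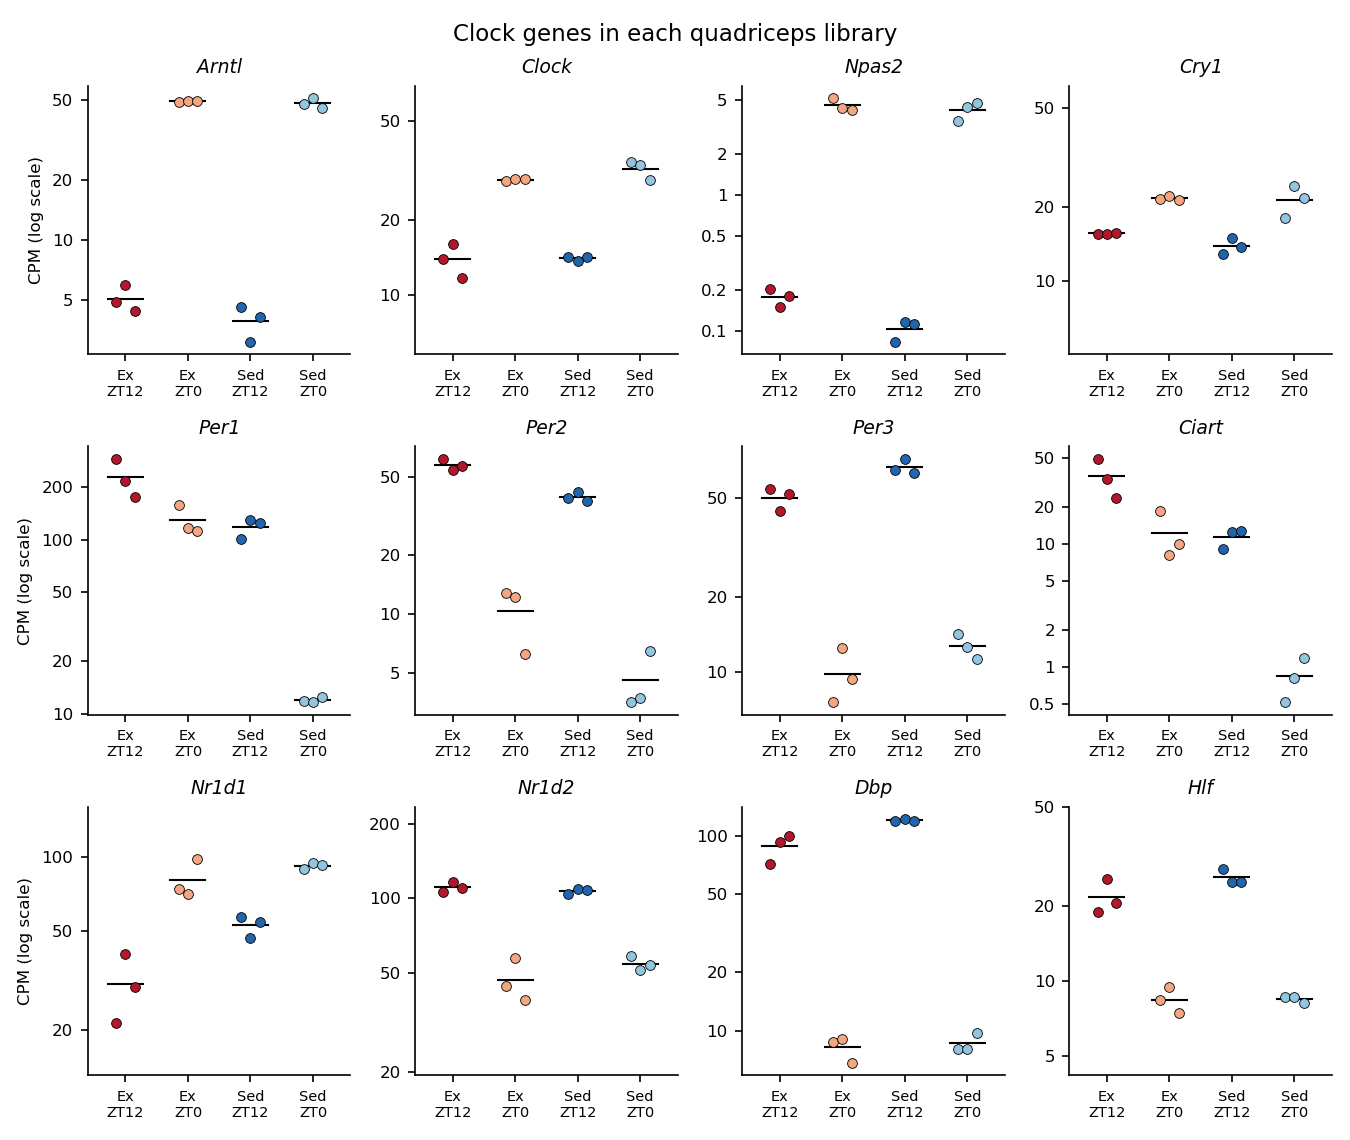
CPM of 12 clock genes on a log scale in each library, with points for single libraries and a line at the mean of the 3 libraries of each group. Arntl, Clock, Npas2, Cry1 and Nr1d1 are lower in Ex ZT12 than in Ex ZT0 and Per2, Per3, Nr1d2, Dbp and Hlf higher, as in the sedentary groups, whereas Per1 and Ciart are close to their Sed ZT12 level in Ex ZT0.

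Of 13 output genes, 5 were higher and 2 lower at dark onset. Dbp had 71.6, 93.1 and 100 CPM in Ex +0h ZT12 and 8.71, 9.05 and 6.82 CPM in Ex +0h ZT0. No library of one group came near the other. Its log2 fold change of 3.42 ± 0.16 had the smallest adjusted p of the clock genes (1.08e-10). It was 3.81 in sedentary muscle, a difference of -0.39 (95% interval -0.82 to 0.04).

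The other PAR bZIP factors followed Dbp with smaller changes. Hlf had 19.0, 25.8 and 20.6 CPM in Ex +0h ZT12 and 8.38, 9.42 and 7.41 CPM in Ex +0h ZT0 (1.37, adjusted p = 1.67e-06). Tef had 393, 419 and 390 CPM in Ex +0h ZT12 and 231, 246 and 187 CPM in Ex +0h ZT0 (0.86, adjusted p = 1.24e-06). In both, the groups did not overlap. Usp2, a deubiquitinase gene, had 419, 364 and 316 CPM in Ex +0h ZT12 and 201, 183 and 122 CPM in Ex +0h ZT0 (1.12, adjusted p = 0.000179). Tspan4, a tetraspanin gene, had 15.7, 15.2 and 16.3 CPM in Ex +0h ZT12 and 7.06, 4.87 and 8.91 CPM in Ex +0h ZT0 (1.19, adjusted p = 0.000479). These 5 genes were higher in all 3 dark-onset libraries than in any light-onset library.

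The 2 outputs lower at dark onset were Leo1 and Nfil3. Leo1, a subunit of the PAF1 complex of RNA polymerase II, had 18.7, 18.2 and 15.8 CPM in Ex +0h ZT12 and 28.9, 30.9 and 32.1 CPM in Ex +0h ZT0 (-0.80, adjusted p = 3.62e-06). Nfil3 had 81, 59.7 and 50.3 CPM in Ex +0h ZT12 and 107, 98.5 and 99.2 CPM in Ex +0h ZT0 (-0.67, adjusted p = 0.0369). The groups do not overlap at either gene, but the Nfil3 call was lost without any 1 of 5 libraries, all but Ex +0h ZT12 replicate 1 (adjusted p 0.054 to 0.144). Wee1 (0.62, 95% interval 0.12 to 1.13), Coq10b (0.86, 0.24 to 1.47), Tsc22d3 (0.41, 0.03 to 0.79), Lonrf3 (0.48, -0.06 to 1.02), Nampt (0.15, -0.06 to 0.37) and Por (-0.04, -0.67 to 0.58) did not pass.

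At Per1, Ciart and Arrdc2 the estimated time difference was smaller in exercised than in sedentary muscle, although the test of that difference did not pass after adjustment. Per1 had 292, 219 and 176 CPM in Ex +0h ZT12 and 158, 117 and 112 CPM in Ex +0h ZT0. In sedentary muscle it had 101, 130 and 125 CPM at ZT12 and 11.8, 11.6 and 12.48 CPM at ZT0. The exercised groups did not overlap, but the light-onset libraries after the run lay near the sedentary ZT12 level. The fold change was 0.83 after the run (95% interval 0.06 to 1.59, adjusted p = 0.154) and 3.31 in sedentary muscle. The difference was -2.48 (95% interval -3.59 to -1.38), with an unadjusted p of 0.000188 and an adjusted p of 0.258.

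Ciart, which encodes the repressor CHRONO, had 49.5, 33.6 and 23.8 CPM in Ex +0h ZT12 and 18.5, 8.13 and 10.1 CPM in Ex +0h ZT0. It had 9.10, 12.6 and 12.8 CPM in Sed ZT12 and 0.517, 0.819 and 1.19 CPM in Sed ZT0. Within each pair the groups did not overlap. Its fold change was 1.53 (adjusted p = 0.0177) after the run and 3.78 in sedentary muscle, a difference of -2.25 (95% interval -3.54 to -0.96, unadjusted p = 0.00183). Without Ex +0h ZT12 replicate 1, Ex +0h ZT0 replicate 2 or replicate 3 the exercised change was 1.22, 1.30 or 1.41 and no longer passed (adjusted p = 0.092, 0.058 and 0.076).

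Arrdc2, an arrestin-domain gene on the glucocorticoid list, had 283, 161 and 169 CPM in Ex +0h ZT12 and 78.8, 56.0 and 67.3 CPM in Ex +0h ZT0. The sedentary values were 122, 281 and 195 CPM at ZT12 and 9.80, 8.97 and 10.9 CPM at ZT0. Here too no group overlapped its partner, and the fold changes were 1.60 (adjusted p = 0.0181) after the run and 4.34 in sedentary muscle. The difference was -2.74 (95% interval -3.97 to -1.50, adjusted p = 0.258). The exercised call was lost without Ex +0h ZT12 replicate 1 (1.29), Ex +0h ZT0 replicate 2 (1.48) or replicate 3 (1.59), at adjusted p of 0.090, 0.054 and 0.062.

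Other genes with the smallest p for that difference also had an adjusted p of 0.258. Sox13, a transcription factor gene, was higher at dark onset after the run (0.52, adjusted p = 0.00368) and was at -0.21 in sedentary muscle; its exercised call was lost with the 6 libraries fitted alone (adjusted p = 0.0519). Sphk2, which makes sphingosine 1-phosphate, was lower in both, at -0.37 (adjusted p = 0.00217) after the run and -0.80 in sedentary muscle. Cldn15, a claudin gene, was at -0.48 (adjusted p = 0.239) after the run and 1.24 in sedentary muscle, where the adipocyte marker sums also separate the groups. With the adipocyte score as a covariate its exercised change was -0.24 and the difference of the effects was -0.90 in place of -1.71. Fam43a had 17.8, 17.5 and 21.5 CPM in Ex +0h ZT12 and 16.5, 23.3 and 15.6 CPM in Ex +0h ZT0, groups that overlap, with a difference from the sedentary effect of 0.90 (95% interval 0.48 to 1.32). Adap1 was the gene called in opposite directions, at -1.02 (adjusted p = 0.04998) after the run and 1.01 in sedentary muscle. Its levels were 2.16, 1.76 and 1.20 CPM in Ex +0h ZT12 and 3.02, 1.60 and 6.09 CPM in Ex +0h ZT0, which overlap. Its call was lost without any 1 of 5 libraries, all but Ex +0h ZT0 replicate 2 (adjusted p 0.060 to 0.380), and the change was -0.45 without Ex +0h ZT0 replicate 3.

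Beside the clock, the list with the most calls was that of the folding machinery of the endoplasmic reticulum. Of 24 tested genes on the list of endoplasmic reticulum and integrated stress response genes, 12 were lower at dark onset and 2 higher. The shares of all genes were 5.94% and 5.58%. The members of this and the other lists were chosen with earlier results of these data known. Their counts beside the shares of all genes are therefore a description and not a test. The median log2 fold change of the list was -0.44, against -0.01 over all genes. In sedentary muscle 4 were lower and 2 higher, with a median of -0.07. Each alternative setting called 10 to 13 lower in exercised muscle, out of 24 tested, or 25 with no filter on low counts.

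Hyou1, a chaperone of the reticulum's lumen, had 27.2, 26.7 and 27.2 CPM in Ex +0h ZT12 and 42.6, 46.1 and 33.9 CPM in Ex +0h ZT0 (-0.60 ± 0.078, adjusted p = 4.96e-05). Hsp90b1, the reticulum's HSP90, had 98.5, 94.9 and 92.7 CPM in Ex +0h ZT12 and 156, 156 and 133 CPM in Ex +0h ZT0 (-0.64 ± 0.083, adjusted p = 5.1e-05). Both groups were separate at both genes. The light-onset libraries after the run stood above all others: in sedentary muscle Hyou1 had 25.2, 24.5 and 23.1 CPM at ZT12 and 25.8, 27.1 and 27.6 CPM at ZT0.

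Manf, a secreted stress factor, had 8.6, 9.21 and 9.72 CPM in Ex +0h ZT12 and 18.7, 19.6 and 15.3 CPM in Ex +0h ZT0 (-0.96, adjusted p = 9.12e-05). Hspa5, which encodes the chaperone BiP, had 169, 158 and 176 CPM in Ex +0h ZT12 and 263, 272 and 189 CPM in Ex +0h ZT0 (-0.53, adjusted p = 0.00286). The groups did not overlap, and in Hspa5 the third light-onset library was the nearest to the dark-onset ones. The Hspa5 call was lost with the 6 libraries fitted alone (adjusted p = 0.0654). The disulphide isomerases Pdia3 (-0.72), Pdia4 (-0.81) and Pdia6 (-0.57), the co-chaperones Dnajc3 (-0.51) and Sdf2l1 (-0.93), Creld2 (-0.89) and the lectin chaperones Calr (-0.37) and Canx (-0.22) were the other lower genes. The Canx call was lost in 4 of the 6 fits that left out a library, those without Ex +0h ZT12 replicates 2 or 3 or Ex +0h ZT0 replicates 1 or 2 (adjusted p 0.063 to 0.107).

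The difference from the sedentary effect was -0.45 for Hyou1 (95% interval -0.68 to -0.22), -0.40 for Hsp90b1 (-0.64 to -0.15), -0.58 for Pdia3 (-0.90 to -0.25) and -0.76 for Pdia4 (-1.20 to -0.32). All 4 had an adjusted p of 0.258. Herpud1, a component of reticulum-associated degradation, was higher at dark onset by 0.24 log2 units (adjusted p = 0.0231). Chac1, a glutathione-degrading target of the ATF4 pathway, had 101, 52.8 and 52.3 CPM in Ex +0h ZT12 and 17.7, 13.1 and 13.3 CPM in Ex +0h ZT0, without overlap (2.21, adjusted p = 0.0355). Neither of these rises was stable: the Herpud1 call was lost without Ex +0h ZT12 replicate 2 or 3 or Ex +0h ZT0 replicate 3 (adjusted p 0.054 to 0.138). The Chac1 call was lost without Ex +0h ZT12 replicate 1 or any single Ex +0h ZT0 library (adjusted p 0.080 to 0.127).

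**Figure D3:**
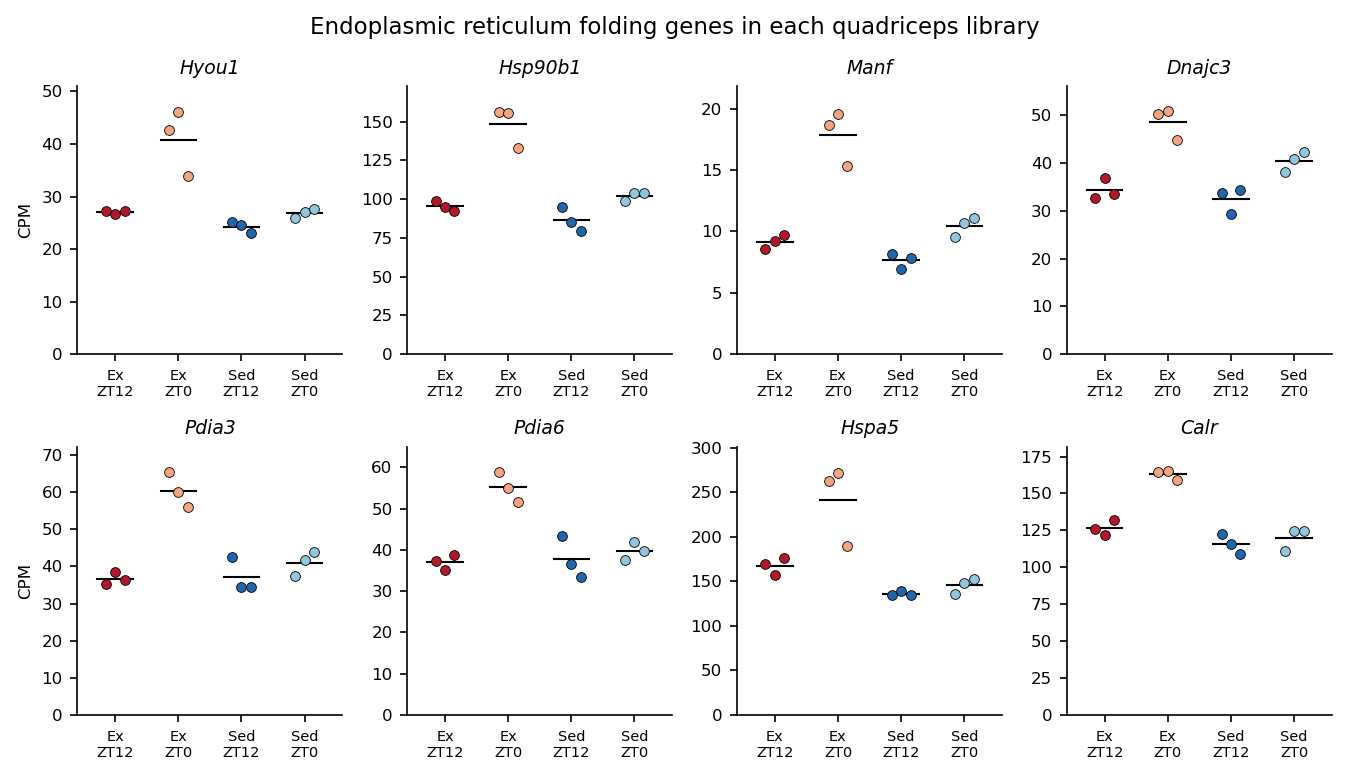
CPM of 8 endoplasmic reticulum folding genes in each library on axes that start at 0, with a line at the mean of each group of 3. At each of the 8 genes the Ex ZT0 points lie above all Ex ZT12 points, and in Hspa5 the third Ex ZT0 library (189 CPM) is the closest to them (158 to 176 CPM).

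Cytosolic heat shock genes, which fold unfolded proteins in the cytosol, gave few calls. Of 30 tested, none was higher and 3 were lower (Hspa4l, Chordc1 and Hspa8), against 5.58% and 5.94% of all genes. In sedentary muscle 7 were lower. Hspa4l had 7.51, 8.58 and 5.84 CPM in Ex +0h ZT12 and 13.5, 11 and 10.6 CPM in Ex +0h ZT0, without overlap (-0.68, adjusted p = 0.00214, and 0.0519 with the 6 libraries fitted alone). Chordc1 (-0.38) lost its call without Ex +0h ZT12 replicate 3 or Ex +0h ZT0 replicate 1 (adjusted p = 0.105 and 0.089), and Hspa8 (-0.41) without any 1 of 4 libraries, Ex +0h ZT12 replicates 1 and 3 and Ex +0h ZT0 replicates 1 and 2 (adjusted p 0.056 to 0.077). Hspa1a, the inducible HSP70, had 203, 171 and 392 CPM in Ex +0h ZT12 and 306, 393 and 152 CPM in Ex +0h ZT0. These groups overlap in full, and the fold change of -0.15 has a 95% interval of -1.98 to 1.68, too wide to say that the 2 sessions were alike. In sedentary muscle Hspa1a had 5.37, 4.55 and 7.74 CPM at ZT12 and 25.0, 35.0 and 108 CPM at ZT0 (-3.25, adjusted p = 0.0324).

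RNA-binding genes known to follow body temperature were higher at dark onset at 4 of 6, and none was lower, against 5.58% and 5.94% of all genes. Cirbp, which is induced by mild cooling, had 28.7, 24.7 and 24.6 CPM in Ex +0h ZT12 and 14.5, 14.2 and 18.7 CPM in Ex +0h ZT0 (0.72, adjusted p = 0.00018). Rbm3, its relative, had 60.6, 53.1 and 68.5 CPM in Ex +0h ZT12 and 38.8, 33.5 and 52.1 CPM in Ex +0h ZT0 (0.55, adjusted p = 0.00541). Neither overlapped, and the sedentary changes were 0.66 and 0.49. Srsf5 (0.32) was also called, but it lost its call without any 1 of 4 libraries: Ex +0h ZT12 replicates 1 or 3, or Ex +0h ZT0 replicates 1 or 2 (adjusted p 0.073 to 0.158). With the 6 libraries fitted alone 1 of the 6 genes passed.

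Of 28 tested genes for glucose use, 5 were higher and 2 lower at dark onset, against 5.58% and 5.94% of all genes. In sedentary muscle 5 of them were higher and none lower. Hk2, the hexokinase that traps glucose in muscle, had 457, 433 and 415 CPM in Ex +0h ZT12 and 287, 292 and 238 CPM in Ex +0h ZT0 (0.68, adjusted p = 0.00143). Pdp1, the phosphatase that activates pyruvate dehydrogenase, had 65.7, 67.0 and 74.3 CPM in Ex +0h ZT12 and 36.6, 39.4 and 36.1 CPM in Ex +0h ZT0 (0.88, adjusted p = 2.57e-06). Both were separate between the groups. Ppp1r3a, which targets a phosphatase to glycogen, had 205, 196 and 203 CPM in Ex +0h ZT12 and 129, 153 and 119 CPM in Ex +0h ZT0 (0.59, adjusted p = 0.00216). Pfkfb4, which sets the fructose 2,6-bisphosphate level, had 127, 103 and 109 CPM in Ex +0h ZT12 and 69.2, 74.8 and 64.2 CPM in Ex +0h ZT0 (0.70, adjusted p = 0.00647). These genes too were higher in every dark-onset library.

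Pfkfb1 was the fifth higher gene (0.49, adjusted p = 0.0269), a call lost without Ex +0h ZT12 replicate 1 or Ex +0h ZT0 replicates 2 or 3 (adjusted p 0.061 to 0.136). The 2 lower genes were Hk1 (-0.28) and Ppp1r3b, and neither call held across libraries: each was lost without Ex +0h ZT12 replicate 1, 2 or 3 or Ex +0h ZT0 replicate 3, and Hk1 also without the other two light-onset libraries. Without Ex +0h ZT0 replicate 3, Ppp1r3b was at -1.41 in place of -2.99 (adjusted p = 0.280) and Hk1 at -0.27 (adjusted p = 0.121). Slc2a4, the insulin-responsive glucose transporter GLUT4, was at 0.11 (95% interval -0.02 to 0.24) and did not pass.

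The lists that describe fat use and insulin signalling held few calls, at shares near the background. Among 27 genes of fatty acid use 2 were higher, Mlycd and Cpt1a, and 1 was lower, Plin2. Mlycd, which breaks down malonyl-CoA, had 88.2, 74.0 and 94.3 CPM in Ex +0h ZT12 and 58.4, 65.9 and 59.5 CPM in Ex +0h ZT0 (0.48, adjusted p = 0.00509), without overlap. Cpt1a (0.41, adjusted p = 0.0267) lost its call without Ex +0h ZT12 replicates 1 or 2 or Ex +0h ZT0 replicate 3 (adjusted p 0.083 to 0.141). Among 22 genes of insulin, IGF and growth hormone signalling, Pik3ip1, an inhibitor of PI3-kinase, was higher and Irs1, the insulin receptor substrate, was lower. Pik3ip1 had 52.3, 50.7 and 54.0 CPM in Ex +0h ZT12 and 31.7, 39.8 and 36.1 CPM in Ex +0h ZT0 (0.55, adjusted p = 0.0041). Irs1 had 44.3, 54.7 and 64.3 CPM in Ex +0h ZT12 and 105, 122 and 97.5 CPM in Ex +0h ZT0 (-0.99, adjusted p = 0.0312). Neither gene overlapped between the groups, yet the Irs1 call was lost without any 1 of 5 libraries, all but Ex +0h ZT12 replicate 3 (adjusted p 0.054 to 0.124).

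Lipogenesis and sterol synthesis genes were lower at dark onset at 8 of 23, against 5.94% of all genes, and Gpam was higher. Srebf2, the transcription factor of sterol synthesis, had 14.5, 15.46 and 17.0 CPM in Ex +0h ZT12 and 25.7, 24.6 and 28 CPM in Ex +0h ZT0 (-0.74 ± 0.072, adjusted p = 1.53e-06), with -0.67 in sedentary muscle. Its groups are far apart and its call held in every alternative. Gpam, the first enzyme of triglyceride synthesis, had 219, 196 and 203 CPM in Ex +0h ZT12 and 140, 150 and 108 CPM in Ex +0h ZT0 (0.63, adjusted p = 0.000873), also without overlap. The enzymes below Srebf2 varied far more between the light-onset libraries. Sqle, an enzyme of the sterol pathway, had 0.960, 0.593 and 0.783 CPM in Ex +0h ZT12 and 2.73, 2.16 and 7.48 CPM in Ex +0h ZT0 (-2.37, adjusted p = 0.00081). Acly, which makes cytosolic acetyl-CoA, had 78.0, 22.8 and 29.4 CPM in Ex +0h ZT12 and 256, 27.8 and 1096 CPM in Ex +0h ZT0 (-3.40 ± 1.0, adjusted p = 0.0405). Sqle is separate between the groups, while the second light-onset library of Acly lies within the dark-onset range.

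Hmgcs1 (-0.60), Elovl5 (-1.13), Idi1 (-0.76), Scd2 (-1.95) and Insig1 (-1.99) were the other lower genes of the list. The light-onset library with the highest adipocyte marker sum, Ex +0h ZT0 replicate 3, also had the highest level of all 8 lower genes, and replicate 2, with the lowest marker sum of the 3, had the lowest of the 3 levels at all 8. Without replicate 3, 5 of the 23 were lower, Scd2 was at -1.13 (adjusted p = 0.060), Insig1 at -1.20 (0.235) and Acly at -1.72 (0.295). The Acly and Insig1 calls were lost without any 1 of 5 libraries, all but Ex +0h ZT0 replicate 2 (adjusted p 0.053 to 0.295). Without replicate 2, 14 were lower, and with the 6 libraries fitted alone 1 was. With the adipocyte marker score as a covariate 7 were lower, and Hmgcs1 was at -0.51, Idi1 at -0.60, Elovl5 at -0.91, Scd2 at -1.61 and Sqle at -1.97. Under that covariate Acly was at -1.66 and lost its call (adjusted p = 0.092), and Insig1 was at -1.05 (adjusted p = 0.012). In sedentary muscle 1 gene of the list was lower and 3 were higher.

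**Figure D4:**
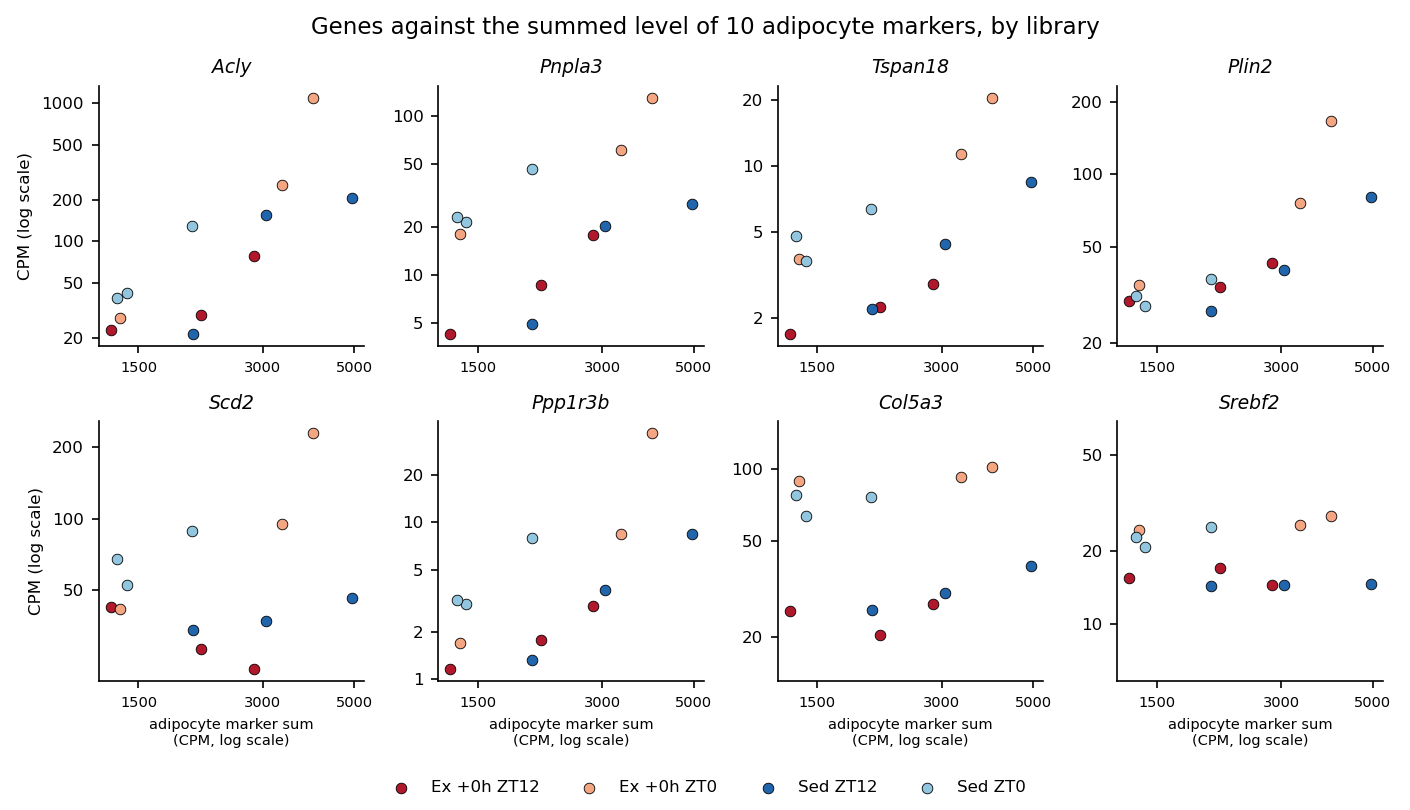
CPM of 8 genes against the summed CPM of 10 adipocyte markers, both on log scales, with 1 point per library and colours for the 4 groups. Within each exercised group Acly, Pnpla3, Tspan18, Plin2 and Ppp1r3b are higher where the marker sum is higher, with Ex +0h ZT0 replicate 3 at the top, whereas at Srebf2 and Col5a3 all 3 Ex +0h ZT0 libraries lie above all 3 Ex +0h ZT12 libraries.

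The same libraries carry some of the largest falls. Pnpla3, a lipase of fat and liver, had 17.9, 4.26 and 8.63 CPM in Ex +0h ZT12 and 61.3, 18.2 and 130 CPM in Ex +0h ZT0 (-2.76, adjusted p = 0.0148). Tspan18, a tetraspanin gene, had 2.86, 1.69 and 2.25 CPM in Ex +0h ZT12 and 11.3, 3.72 and 20.6 CPM in Ex +0h ZT0 (-2.37, adjusted p = 0.00443). Ptges, a prostaglandin E synthase, was at -1.79 and Mmp9, a gelatinase, at -1.78. At each of the 4 the groups do not overlap and the light-onset library with most adipocyte marker RNA is the highest. With the marker score as a covariate they remained called, at -1.93, -1.71, -1.27 and -1.48. The Pnpla3 call was lost without Ex +0h ZT12 replicate 2 or 3 or Ex +0h ZT0 replicate 3 (adjusted p 0.058 to 0.085). Plin2, a lipid droplet coat protein, was lower by the same pattern (-1.37), and its call was lost in 5 of the fits that left out a library, all but the one without Ex +0h ZT0 replicate 2; without Ex +0h ZT0 replicate 3 it was at -0.64 (adjusted p = 0.301). With the marker score as a covariate Plin2 was at -0.80 and lost its call (adjusted p = 0.062). With the 6 libraries fitted alone the calls of Pnpla3, Tspan18, Ptges, Plin2 and Plin4 were lost. Of the 10 adipocyte markers themselves 1 was called in edgeR, Plin4, and it was higher at dark onset (1.04, adjusted p = 0.00459), while the median of the 10 was -1.21. The part of adipocyte RNA in these falls was not tested.

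Genes that respond to glucocorticoids, whose level in mice peaks near dark onset, were higher at 7 of 23 tested and lower at none. The shares of all genes were 5.58% and 5.94%, and the median of the list was 0.63. In sedentary muscle 13 were higher. Glul, glutamine synthetase, had 1516, 790 and 782 CPM in Ex +0h ZT12 and 438, 308 and 446 CPM in Ex +0h ZT0 (1.37, adjusted p = 0.00035). Klf9, a zinc finger repressor, had 141, 131 and 121 CPM in Ex +0h ZT12 and 91.1, 87.8 and 74.5 CPM in Ex +0h ZT0 (0.63, adjusted p = 0.000313). The groups are separate at both, and the first dark-onset library is the highest. Klf15 (0.90), Foxo3 (0.64), Foxo1 (0.86) and Arrdc3 (0.84) were the others beside Arrdc2. Without Ex +0h ZT12 replicate 1 only Glul and Klf9 passed, and Klf15 was at 0.60 (adjusted p = 0.067), Foxo3 at 0.45 (0.087), Foxo1 at 0.32 (0.241) and Arrdc3 at 0.63 (0.165). Without Ex +0h ZT0 replicate 3, 3 of the 23 passed. The Arrdc3 call was lost without any 1 library but Ex +0h ZT12 replicate 3 (adjusted p 0.061 to 0.165), and that of Foxo1 without any single light-onset library (0.070 to 0.096). With the 6 libraries fitted alone Glul did not pass (0.0783).

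Immediate early genes, which are induced within minutes of contraction, gave 1 higher gene among 28, Ptgs2, against 5.58% of all genes. Of the 28, 26 had a positive fold change, and 9 had no overlap between the groups, against 27.2% of all genes. Their sums were separate, at 3476 to 4714 CPM in Ex +0h ZT12 and 2630 to 3430 CPM in Ex +0h ZT0. Their mean log2 CPM was not: Ex +0h ZT0 replicate 2 (5.68) lay above Ex +0h ZT12 replicates 1 and 2 (5.67 and 5.54). The other light-onset libraries lay below every dark-onset one. The median fold change was 0.44, and 0.22 without Ex +0h ZT12 replicate 3. Ptgs2, the inducible cyclooxygenase, had 3.18, 3.80 and 7.05 CPM in Ex +0h ZT12 and 0.403, 2.1 and 0.870 CPM in Ex +0h ZT0, without overlap (2.06, adjusted p = 0.0152). Its call was lost without Ex +0h ZT12 replicate 3 (1.64) or Ex +0h ZT0 replicate 1 (1.61) or 3 (1.93), at adjusted p of 0.072, 0.072 and 0.063. Junb had 204, 218 and 200 CPM in Ex +0h ZT12 and 159, 151 and 129 CPM in Ex +0h ZT0, groups that do not overlap, yet its change of 0.50 (95% interval -0.39 to 1.39) did not pass. Nr4a1 was at 0.46 (-0.12 to 1.05) and Fos at 0.27 (-1.49 to 2.02). With the 6 libraries fitted alone 6 of the 28 passed, all higher.

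In protein degradation and autophagy 3 of 26 were higher and 1 lower, against 5.58% and 5.94% of all genes. Gadd45a, a stress gene linked to muscle atrophy, had 24.9, 24.4 and 25.9 CPM in Ex +0h ZT12 and 15.4, 16.6 and 15.53 CPM in Ex +0h ZT0 (0.66, adjusted p = 0.00626), without overlap. Atg14 (0.30) and Sqstm1 (0.27), genes of autophagy, were the other higher ones, and both lost the call in several fits: Atg14 without Ex +0h ZT12 replicate 1 or Ex +0h ZT0 replicate 1 or 3 (adjusted p 0.066 to 0.134) and Sqstm1 without any single library (0.054 to 0.148).

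The nuclear receptor programme of PGC-1 held 2 higher and 2 lower genes of 17, against 5.58% and 5.94% of all genes, beside 1 and 6 in sedentary muscle. Nrip1, a corepressor also called RIP140, had 25.9, 21.7 and 24.9 CPM in Ex +0h ZT12 and 13.2, 10.3 and 8.39 CPM in Ex +0h ZT0, without overlap (1.17, adjusted p = 0.000496). Ppargc1a, which encodes PGC-1α, had 27.4, 27.8 and 27.0 CPM in Ex +0h ZT12 and 25.5, 28.2 and 23.7 CPM in Ex +0h ZT0, which overlap (0.09, 95% interval -0.15 to 0.32). Sirt1, a deacetylase, was higher (0.42) and the receptors Rxrg (-0.39) and Thra (-0.28) lower. Sirt1 lost its call without Ex +0h ZT12 replicate 1 or 3 or Ex +0h ZT0 replicate 1 or 3 (adjusted p 0.133 to 0.183), Thra without Ex +0h ZT12 replicate 2 or 3 or Ex +0h ZT0 replicate 3 (0.053 to 0.106), and Rxrg without Ex +0h ZT12 replicate 3 (0.054).

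Several vessel genes were lower at dark onset. Of 25 genes of hypoxia and angiogenesis 4 were lower and 1 higher, against 5.94% and 5.58% of all genes. Of 9 endothelial markers 4 were lower and none higher, and 6 were lower in sedentary muscle. In exercised muscle 3 of the 9 had a positive change, and DESeq2 called 5 lower and 1 higher. Tek and Kdr stand on both lists. Kdr, the main VEGF receptor, had 17.0, 20.8 and 25.6 CPM in Ex +0h ZT12 and 35.8, 37.1 and 42.8 CPM in Ex +0h ZT0 (-0.87, adjusted p = 0.00193). Tek, the angiopoietin receptor, had 14.6, 14.6 and 16.1 CPM in Ex +0h ZT12 and 19.3, 22.7 and 24.5 CPM in Ex +0h ZT0 (-0.55, adjusted p = 0.000102). Cdh5, the cadherin of endothelial junctions, had 54.4, 53.9 and 57.3 CPM in Ex +0h ZT12 and 78.1, 77.4 and 73.9 CPM in Ex +0h ZT0 (-0.47, adjusted p = 0.00488). None of the 3 overlapped, and the 9 endothelial markers summed to 248 to 274 CPM in Ex +0h ZT12 and 313 to 333 CPM in Ex +0h ZT0.

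Emcn (-0.39) was the other endothelial marker, lost without Ex +0h ZT12 replicate 1 or 2 or Ex +0h ZT0 replicate 3 (adjusted p 0.105 to 0.141). Apln, the ligand apelin, was at -1.58 (adjusted p = 0.0107), a call lost without Ex +0h ZT12 replicate 1 (-1.40, 0.061). Nos3, endothelial nitric oxide synthase, was at -0.40 (adjusted p = 0.0204), lost without Ex +0h ZT12 replicate 3 (-0.30, 0.107). Hif3a, a hypoxia-inducible factor subunit, rose: it had 5.61, 2.74 and 2.65 CPM in Ex +0h ZT12 and 0.776, 0.728 and 0.696 CPM in Ex +0h ZT0 (2.31, adjusted p = 0.00018), with no overlap and 2.35 in sedentary muscle.

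Energy and contraction genes gave few calls after the run. None of 27 nuclear genes of oxidative phosphorylation passed in edgeR, DESeq2 called none and none was under an unadjusted p of 0.05, with a median of 0.02, beside 18 lower in sedentary muscle with a median of -0.27. None of 13 mitochondrially encoded genes passed in edgeR, DESeq2 called 1 higher and 1 was under an unadjusted p of 0.05, with a median of -0.11, beside 11 lower in sedentary muscle with a median of -0.51. Yet in exercised muscle 9 of the 13 had no overlap between the groups, against 27.2% of all genes, and 2 had a positive change. Their sums were separate, at 96097 to 96969 CPM in Ex +0h ZT12 and 101027 to 104963 CPM in Ex +0h ZT0. The test of the difference called no gene of either list. Slow fibre RNA also varied between the sedentary libraries: the 11 slow fibre genes summed to 559, 185 and 157 CPM in Sed ZT12 and 2413, 323 and 882 CPM in Sed ZT0, with a median of -2.31. The 27 oxidative phosphorylation genes summed to 11180, 12174 and 12743 CPM in Sed ZT12 and 15295, 12253 and 15670 CPM in Sed ZT0. Replicates 1 and 3 of Sed ZT0 were high in both sums, but within Sed ZT12 the sums ran in opposite order. The part of slow fibre RNA in the sedentary calls was not tested. Cycs, cytochrome c, had 307, 341 and 365 CPM in Ex +0h ZT12 and 361, 394 and 330 CPM in Ex +0h ZT0, which overlap, and the mitochondrial gene mt-Co2 had 9280, 9376 and 9384 CPM in Ex +0h ZT12 and 10253, 10470 and 10459 CPM in Ex +0h ZT0, which do not. Neither passed (-0.10, 95% interval -0.27 to 0.08, and -0.15, -0.38 to 0.07).

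Of 14 fast fibre genes 13 had a positive change. Their sums were separate, at 232553 to 237301 CPM in Ex +0h ZT12 and 179529 to 225754 CPM in Ex +0h ZT0. Atp2a1, the calcium pump of fast fibres, was the 1 called. It had 44606, 37460 and 45005 CPM in Ex +0h ZT12 and 32200, 35758 and 32561 CPM in Ex +0h ZT0, without overlap (0.34, adjusted p = 0.0111), a call lost without Ex +0h ZT12 replicate 1 or 3 or Ex +0h ZT0 replicate 1 (0.053 to 0.059). Myh4, the fastest myosin, had 81176, 85883 and 84060 CPM in Ex +0h ZT12 and 66906, 77374 and 56479 CPM in Ex +0h ZT0, also without overlap, and did not pass (0.32, 95% interval 0.06 to 0.59). None of 11 slow fibre genes passed in edgeR, DESeq2 called none and none was under an unadjusted p of 0.05, with a median of -0.61 and sums of 150 to 388 CPM in Ex +0h ZT12 and 290 to 459 CPM in Ex +0h ZT0, which overlap. That median was -0.35 without Ex +0h ZT12 replicate 2, -0.38 without Ex +0h ZT0 replicate 3 and -1.25 without Ex +0h ZT12 replicate 3.

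**Figure D5:**
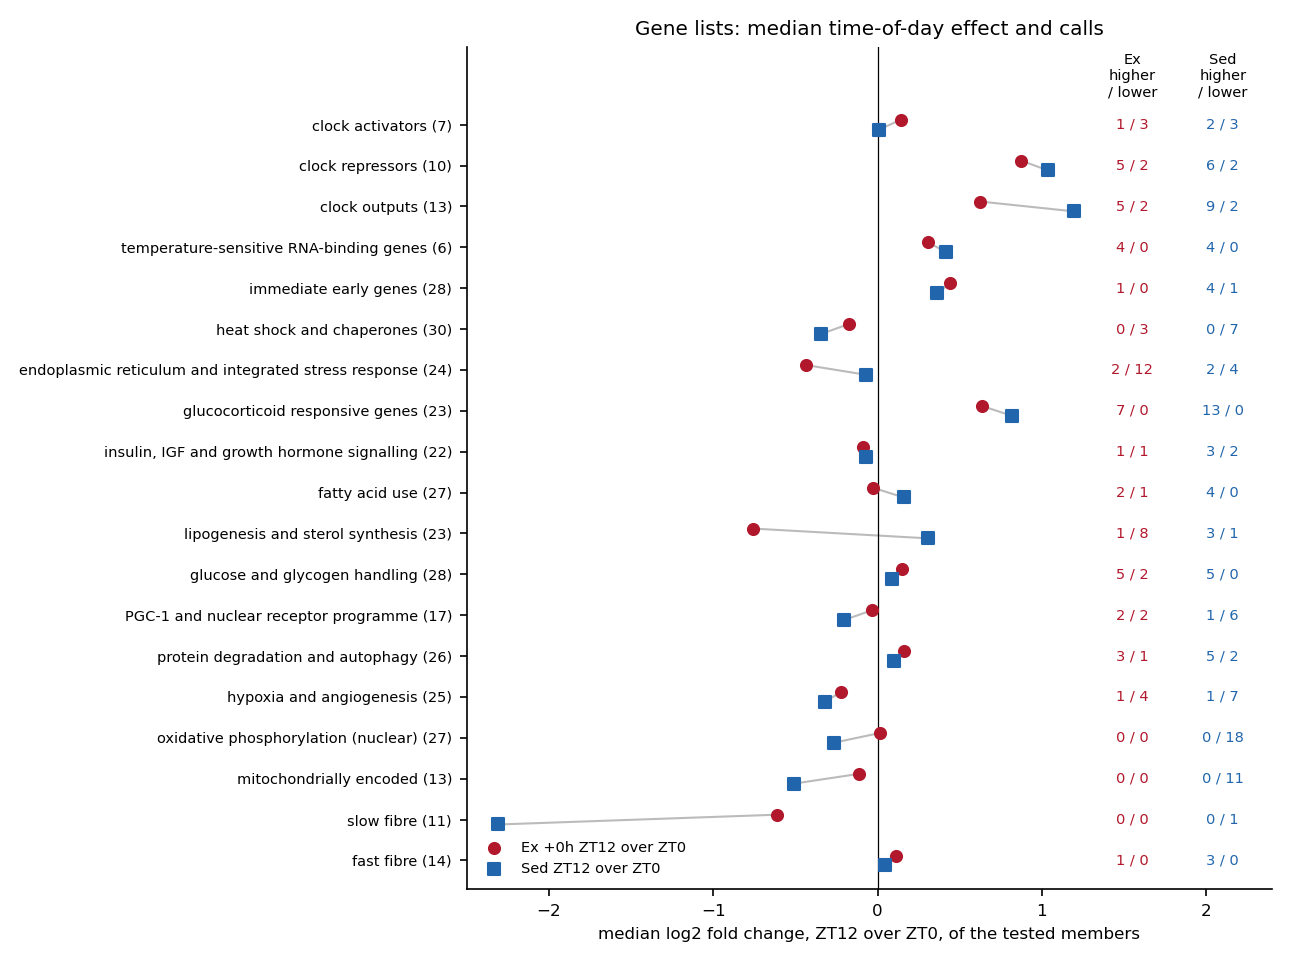
Median log2 fold change of ZT12 over ZT0 for 19 gene lists, with circles for exercised and squares for sedentary muscle; the count of tested members stands in parentheses and the genes called higher and lower on the right. The endoplasmic reticulum list has 12 lower genes in exercised and 4 in sedentary muscle, and the oxidative phosphorylation list 0 and 18.

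Beside the vessel genes and Plin4, 1 macrophage marker and 1 fibroblast marker passed among the markers of other cell types. No gene of the lists for erythroid cells (5 tested), neutrophils (4), smooth muscle and pericytes (7), Schwann cells and nerve (7), tendon (6) or skeletal muscle (8) was called by edgeR; unadjusted p was under 0.05 at 1, 2, 0, 0, 0 and 3 of them, and DESeq2 called 0, 1, 0, 0, 0 and 1. Of 9 macrophage markers Adgre1 was lower (-0.87, adjusted p = 0.0166), without Ex +0h ZT12 replicate 1 or Ex +0h ZT0 replicate 3 no longer so (0.093 and 0.073). Of 9 fibroblast and matrix markers Fbn1, the microfibril protein fibrillin, was lower, with 22.4, 36.5 and 26.5 CPM in Ex +0h ZT12 and 75.4, 101 and 69.6 CPM in Ex +0h ZT0 (-1.53, adjusted p = 0.000421). Its groups are separate, and the sedentary change was -1.43. Their summed levels were 939 to 1688 CPM in Ex +0h ZT12 and 1357 to 2158 CPM in Ex +0h ZT0 for the fibroblast list and 157 to 174 CPM and 187 to 228 CPM for the macrophage list. The 4 neutrophil markers tested had no overlap between the groups, as had 27.2% of all genes, with a median of -1.83. Their sums were low, at 0.942 to 1.41 CPM in Ex +0h ZT12 and 2.06 to 2.57 CPM in Ex +0h ZT0. Ly6g, Mpo, Elane, Camp and Ltf were too low to be tested.

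Among named genes off the clock lists, Spon2 had the largest fall, and Col5a3, Igf2bp2, Tead4 and Wwtr1 fell in both states. Spon2, a matrix protein gene of the spondin family, had 0.369, 0.630 and 0.663 CPM in Ex +0h ZT12 and 13.8, 10.3 and 7.35 CPM in Ex +0h ZT0 (-4.25 ± 0.43, adjusted p = 4.15e-06). Col5a3, a chain of type V collagen, had 27.4, 25.7 and 20.4 CPM in Ex +0h ZT12 and 92, 88.7 and 101 CPM in Ex +0h ZT0 (-1.94 ± 0.15, adjusted p = 1.09e-07). Every dark-onset library lay below every light-onset library at both. The sedentary changes were -3.80 and -1.18, and the difference for Col5a3 was -0.76 (95% interval -1.19 to -0.34, adjusted p = 0.258).

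Igf2bp2, an RNA-binding protein gene, had 1.5, 1.67 and 1.47 CPM in Ex +0h ZT12 and 5.82, 6.30 and 6.61 CPM in Ex +0h ZT0 (-2.01, adjusted p = 0.000531). Tead4, a partner of the YAP and TAZ coactivators, had 3.90, 3.82 and 3.21 CPM in Ex +0h ZT12 and 12.3, 11.3 and 11.3 CPM in Ex +0h ZT0 (-1.68, adjusted p = 0.000119). Wwtr1, which encodes TAZ itself, had 18.6, 19.8 and 18.7 CPM in Ex +0h ZT12 and 33.0, 31.7 and 35.4 CPM in Ex +0h ZT0 (-0.81, adjusted p = 7.09e-07). All 3 are separate between the groups, and their sedentary changes were -1.62, -1.64 and -0.82. Creb3l1, a membrane-bound transcription factor, was at -1.79, Ypel2 at -1.69 and Adamts4, an aggrecan-cleaving protease, at -1.67, beside -1.87, -1.84 and -2.32 in sedentary muscle.

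Among named genes off the clock lists, Cep85l, a centrosomal protein gene, had the largest rise. It had 66.4, 43.9 and 34.5 CPM in Ex +0h ZT12 and 6.50, 7.43 and 5.60 CPM in Ex +0h ZT0 (2.88 ± 0.22, adjusted p = 1.42e-07), with 2.32 in sedentary muscle. Fmo2, a flavin monooxygenase gene, had 32.8, 22.2 and 25.6 CPM in Ex +0h ZT12 and 8.27, 6.78 and 7.97 CPM in Ex +0h ZT0 (1.81, adjusted p = 4.89e-06). No dark-onset library overlapped a light-onset one at either gene. Slc4a8, a bicarbonate transporter gene, was at 1.68, Zc3h6 at 1.64 and Cys1, a cilium protein gene, at 1.62, beside 1.92, 1.40 and 1.19 in sedentary muscle.

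Several genes without a place on the lists were called in the same direction in both states. Gtf2ird1, a transcription factor gene, had 8.53, 9.04 and 8.61 CPM in Ex +0h ZT12 and 19.2, 16.5 and 19.1 CPM in Ex +0h ZT0 (-1.06, adjusted p = 6.38e-09), with -1.07 in sedentary muscle. Slc25a36, a mitochondrial pyrimidine nucleotide carrier, had 12.6, 13.6 and 14.2 CPM in Ex +0h ZT12 and 28.8, 30.6 and 30.3 CPM in Ex +0h ZT0 (-1.15, adjusted p = 6.4e-09), with -1.44. Zhx2, a zinc finger and homeobox repressor, had 19.5, 23.1 and 20.8 CPM in Ex +0h ZT12 and 42.2, 49.9 and 50 CPM in Ex +0h ZT0 (-1.16, adjusted p = 4.28e-08), with -1.08. In all 3 the light-onset libraries lay above every dark-onset one. Mir22hg, the host RNA of a microRNA, was higher at dark onset by 1.10 log2 units after the run and by 1.20 in sedentary muscle. Mif4gd (-0.78 and -0.73) and Arhgap20 (-1.03 and -1.16) were lower in both.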

How the data were processed

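RNA of quadriceps was sequenced from TruSeq Stranded mRNA libraries, per the labels' protocols. The deposited table held estimated counts per gene, which the authors made with kallisto 0.46.2 after bcl2fastq 2.20.0.422, per the submitters' processing notes. These also name DESeq2 1.26.0 and the builds GRCm38.p6 and mm10, with no annotation given in the sources used here. Each library had 2 lane columns, which were summed and rounded to whole numbers. Genes carry Entrez IDs, and 23614 of 23621 were matched to symbols in the RefSeq table of GRCm38.p6.

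All 24 quadriceps libraries entered 1 fit with a mean for each of 8 groups in edgeR 4.0.16 (R 4.3.3, limma 3.58.1), with TMM scaling, robust quasi-likelihood dispersion and edgeR's filter at a minimum count of 10. Calls use a Benjamini-Hochberg adjusted p under 0.05, and fold changes are ZT12 over ZT0. The difference tested was the effect in exercised minus that in sedentary muscle. On simulated counts made for the comparison of exercised muscle, the test recovered 85% of genes changed by 1 log2 unit and 99% of those changed by 2. The changed genes were drawn from those with higher counts, and each gene varied independently of the others. Recovery of smaller changes and of low-count genes was not simulated. Intervals are at 95% and cover the spread between libraries. Levels are CPM computed from the counts.

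The naming rule took 12 rises and 12 falls, ranked by size among called genes without overlap and with an average log2 CPM of at least 1, the clock lists, up to 4 genes of each other list, the 12 strongest genes called in both states and the 8 smallest p for the difference; most other called members of the lists are named too, and some genes are not reported here. The members and lists were chosen with earlier results of these data known. The alternatives were DESeq2 (1.42.0), other size factors, no filter, the libraries compared alone, a replicate block, 1 lane, an adipocyte score as covariate and leaving out each library.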

Additional observations from a re-analysis of the deposited data

How the results depend on the processing

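With the libraries of a comparison fitted alone, 758 genes were called in exercised muscle, 1597 in sedentary muscle and 1 for the difference of the effects. With the adipocyte score as a covariate, 1077 were called in sedentary muscle, and DESeq2 called 18 for the difference. The replicate block called 1653 genes in exercised muscle. The main fit did not treat replicate numbers as pairs. Deviations of same-numbered exercised libraries correlated at 0.0963, 0.333 and 0.0363, and those of differently numbered ones at -0.376 to 0.329. Same-numbered sedentary libraries gave -0.195, 0.0938 and 0.313. With 3 libraries per group, these values cannot show whether the numbers pair the samples. Fits that left out 1 library called 994 to 1978 genes in exercised muscle, 1283 to 2350 in sedentary muscle, 623 to 905 in both and 0 to 322 for the difference.

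All 120 called genes named for exercised muscle had the same direction in each alternative, and 70 of them were called in each. Of the other 50, 37 lost the call in at least 1 fit that left out a library. Another 13 lost it only with the libraries of the comparison fitted alone (adjusted p 0.0519 to 0.155): Col15a1, Elovl5, Glul, Hmgcs1, Hspa4l, Hspa5, Idi1, Plin4, Ptges, Rbm3, Sox13, Sqle and Tspan18. The adipocyte covariate ended the calls of 7: Acly, Adap1, Arrdc3, Chac1, Nfil3, Plin2 and Sqstm1. Of 21 named genes that were not called, 3 changed direction. Leaving out 1 library gave -0.15 to 0.49 for Fos, -0.60 to 0.16 for Hspa1a and -0.31 to 0.18 for Por, and Por was at 0.30 with the adipocyte covariate. The cause of these changes was not tested. Of the 15 differences named, 8 passed in at least 1 alternative. Ex +0h ZT0 replicate 3 had the lowest depth, so low-count genes are measured least precisely there.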

Other observations

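Other gene families, picked after their values were seen and therefore given as counts without a test, follow. Of 37 assembly factors of the pre-ribosome (Nop, Utp, Rrp and Nol genes), 10 were higher at dark onset and none lower, against 5.58% and 5.94% of all genes. Nop56, a core protein of the box C/D particles, was at 0.38, Rrp9 at 0.34, Utp20 at 0.39 and Nol6 at 0.26. In sedentary muscle 5 of the 37 were higher and 2 lower. Of 369 zinc finger (Zfp) genes, 29 were higher and 8 lower after the run, beside 17 higher and 31 lower in sedentary muscle. Of 14 Kruppel-like factors 4 were higher and none lower, beside 4 higher and 1 lower in sedentary muscle. Klf9 and Klf15, named above with the glucocorticoid list, are among those higher after the run. The Utp20 and Nol6 calls were lost without Ex +0h ZT12 replicate 1 or Ex +0h ZT0 replicate 1 (adjusted p 0.053 to 0.093).

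Genes of the matrix and of its contacts were called lower more often than higher at dark onset, where 5.94% of all genes were lower and 5.58% higher. Of 42 collagens 6 were lower and 1 higher, and Col4a1, a basement membrane collagen, had 139, 135 and 118 CPM in Ex +0h ZT12 and 309, 296 and 285 CPM in Ex +0h ZT0, without overlap (-1.18, adjusted p = 2.52e-05). Its partner Col4a2 was at -1.04 and Col15a1 at -1.17. Of 32 Adam and Adamts metalloproteases 7 were lower and none higher, with Adam19 at -0.93, and of 26 integrins 4 were lower, with Itga3 at -0.57. In sedentary muscle 4 collagens, 6 of these proteases and 3 integrins were lower, and 1 collagen and 1 protease were higher.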
